A study of Mus musculus with 10 samples.

Results

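What siRNA transfections labelled for Cirbp and for Rbm3 share against the same mock control was examined in cultured mouse embryonic fibroblasts, the matrix-producing cells of the embryo's connective tissue. The comparison set 4 libraries of cells transfected with siRNA at 37 °C, 2 labelled siCirbp and 2 labelled siRbm3, as 1 group against 2 libraries of mock-transfected cells at 37 °C. These are 6 of the 10 samples of the series. The others are 2 mock-transfected libraries at 32 °C, whose values are given beside the results as a further reference, and 1 PAR-CLIP library each of FLAG-tagged Cirbp and FLAG-tagged Rbm3. Of 22552 genes in the tables, 10858 averaged 1 FPKM or more across these 6 libraries, and 144 of them have no transcript of at least 200 nt, which left 10714 genes for the test. FPKM are sequenced fragments scaled to transcript length and to the number of fragments mapped. At the FPKM limit, Ubxn11 was kept with a mean of 1.0003 and Gnaz was left out with 0.99938.

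Cirbp and Rbm3 are RNA-binding proteins of the cold-inducible family, which carry an RNA recognition motif and become more abundant in mildly cooled mammalian cells. A small interfering RNA is a short RNA duplex that enters the Argonaute complex and directs it to cut a matching mRNA. Every transfection with such a duplex loads the same machinery whatever its target. Serum-stimulated fibroblasts are a classic system for the immediate early genes, which are transcribed within minutes of a growth signal, and for the E2F-driven genes of DNA replication that follow when cells enter S phase.

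All groups were polyadenylated RNA from one cell type, read as single 76-base reads. No group used here carried a non-targeting siRNA, so an effect of losing either protein and an effect of siRNA transfection cannot be told apart. Whether libraries of 1 group came from separate cultures is not in the labels, nor whether numbers 1 and 2 of the siRNA libraries mark replicate transfections or different siRNAs, so p-values measure only the spread between these libraries. Depth ran from 24.8 M to 27.8 M mapped fragments per library. Of 10 fibroblast markers, 9 had a mean of at least 1 FPKM, while Thy1 was under 0.1 FPKM in all 6 libraries. The summed level of the fibroblast markers was 9622 and 9672 FPKM in mock and from 6050 to 11846 in the siRNA libraries. The macrophage markers Ptprc, Emr1, Itgam, Lyz2 and Aif1 and the epithelial markers Cdh1, Epcam, Krt8, Krt18, Krt5, Krt14 and Cldn4 were under 0.1 FPKM in all 6. Of the 8 listed macrophage markers 2 averaged at least 1 FPKM, as did 1 of 8 epithelial and 3 of 7 endothelial markers. The summed macrophage markers were at 17.6 and 20.6 FPKM in mock and from 13.1 to 25.0 in the siRNA libraries. The summed epithelial markers were at 1.41 and 1.80 in mock and from 1.39 to 7.75 after siRNA, highest in siRbm3 2.

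The targets of the siRNAs were read first. Mock 1 and 2 held 15.9 and 17.1 FPKM of Cirbp, siCirbp 1 and 2 held 10.8 and 6.07, and siRbm3 1 and 2, as labelled, held 13.8 and 23.8. Both siCirbp libraries were below both mock libraries. For Rbm3 the mock values were 1.85 and 2.21 FPKM, those of siCirbp 5.54 and 7.55, and those of siRbm3 as labelled 3.05 and 1.16. The library labelled siRbm3 1 was therefore above both mock libraries for its own target, against its label, and the names siRbm3 1 and siRbm3 2 below stand for the labels only. In mock at 32 °C, Cirbp was at 34.5 and 37.2 FPKM and Rbm3 at 3.64 and 3.20. Over the 4 siRNA libraries together neither target passed the adjusted test. The log2 difference was -0.40 for Cirbp (SE 0.43, limma adjusted p = 0.715) and 0.64 for Rbm3 (SE 0.50, limma adjusted p = 0.605). For each target this pools libraries on both sides of mock, so it does not measure the knockdown. The exact two-sided permutation test gave p = 0.533 for each target, and the smallest p that 4 against 2 libraries allow is 0.133.

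**Figure D1:**
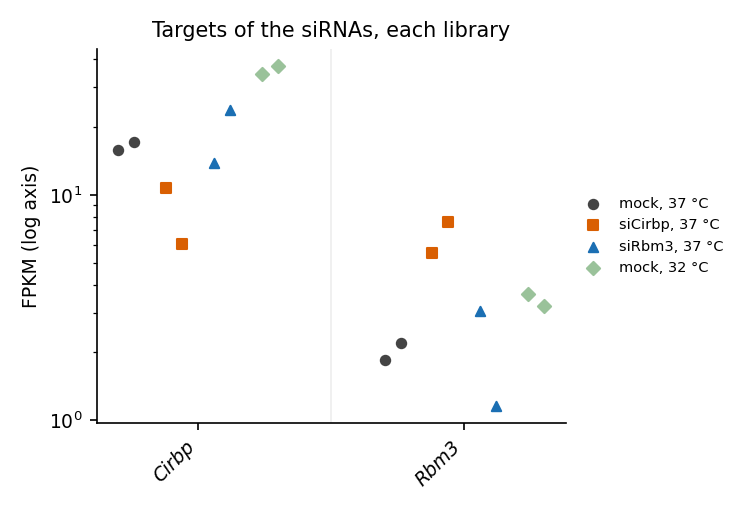
FPKM of Cirbp and Rbm3 (log axis) in each of the 8 RNA-seq libraries, with 1 point per library and groups by colour and shape. Both siCirbp libraries lie below mock 37 °C for Cirbp, and 1 of the 2 libraries labelled siRbm3 lies above mock 37 °C for Rbm3.

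Fos, an immediate early gene, and Ptchd1 were the 2 genes that passed the adjusted test, and both were lower in the siRNA libraries than in mock. Limma on log2(FPKM + 1), fitted over 10714 genes and adjusted by Benjamini-Hochberg, called 2 genes lower at an adjusted p of 0.05 (0.0187% of those tested) and 0 higher. At an unadjusted p under 0.05 it gave 1496 genes (14.0%), of which 1224 were higher (11.4%) and 272 lower (2.54%). These counts moved with the library left out: there were 2653 without siRbm3 2, of which 1879 were higher and 774 lower. There were 1164 without siCirbp 1, 1432 without siCirbp 2 and 1374 without siRbm3 1. Far fewer remained without either mock library, in fits with 1 control library. Median centring gave 795 higher and 377 lower. All differences below are log2 differences on the log2(FPKM + 1) scale unless another scale is named, which makes those of genes near 1 FPKM smaller than the ratio of their FPKM.

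Ptchd1, a membrane protein with a patched domain, and Fos, a subunit of the AP-1 transcription factor, were the 2 genes that fell. Ptchd1 (mm9 chromosome X, 152004279 to 152057870) stood at 6.02 and 5.39 FPKM in mock, 0.592 and 0.741 in siCirbp, and 0.553 and 1.102 in siRbm3. All 4 siRNA values lay far below both mock values, and the groups did not overlap. It fell by 1.95 (SE 0.19, limma adjusted p = 0.049). Its FPKM, length and depth correspond to about 1086 and 943 reads in mock and 96 to 177 in the siRNA libraries. Fos (mm9 chromosome 12, 86814851 to 86818219) stood at 13.9 and 13.6 FPKM in mock, 3.51 and 2.73 in siCirbp, and 2.27 and 3.27 in siRbm3. It fell by 1.91 (SE 0.19, limma adjusted p = 0.049), with about 808 and 770 reads in mock and 127 to 195 in the siRNA libraries. Between siCirbp and siRbm3 the difference was -0.12 for Ptchd1 (95% interval -0.64 to 0.41) and 0.13 for Fos (95% interval -0.38 to 0.65). Genes chosen by the smallest p in a fit that pools the siRNA libraries have little spread between them through that choice, so the likeness of siCirbp and siRbm3 in such genes is a description and no test. Both calls lie just under the threshold. Fos kept its call under 5 of 18 alternatives and Ptchd1 under 4 of 17, with adjusted p from 0.0127 to 0.998, and both lost it when any library other than siRbm3 2 was left out. The exact permutation p was 0.133 for each, the smallest possible. Cells kept at 32 °C without siRNA had 1.34 and 1.30 FPKM of Fos, below all siRNA libraries, and 5.50 and 3.32 of Ptchd1, above all of them.

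Fos belongs to the immediate early genes, of which 9 of 10 listed were tested. In 7 of these 9 all 4 siRNA libraries lay below both mock libraries, and in 0 above. Over all genes tested, all 4 siRNA libraries lay below both mock libraries in 741 genes (6.92%) and above both in 2616 (24.4%). The list's median difference was -0.90, against 0.09 over all genes tested, and its 4 per-library medians were -0.997 and -1.34 in siCirbp and -0.90 and -1.44 in siRbm3. Besides Fos, 6 of the 9 had an unadjusted limma p under 0.05 without passing the adjusted test. Of all genes, 2.54% were lower at that limit. The count was 7 without siRbm3 1 and 8 without siRbm3 2, and 7 with the length trend removed or with median centring. In these settings, in the same order, the share of all genes below was 9.22%, 16.2%, 6.02% and 9.59%.

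The members were read in order of their mock level. Egr1, a zinc finger transcription factor, was at 211 and 230 FPKM in mock, 58.6 and 66.0 in siCirbp, and 80.5 and 48.7 in siRbm3, a difference of -1.80 (SE 0.21, limma adjusted p = 0.0847). The highest siRNA library of Egr1 was far below the lower mock library. Junb, another AP-1 subunit, was at 140 and 184 FPKM in mock, 67.2 and 62.9 in siCirbp, and 66.2 and 113 in siRbm3 (-1.09, SE 0.26). Ier2, a small nuclear protein, was at 113 and 134 FPKM in mock, 26.8 and 39.5 in siCirbp, and 37.2 and 42.6 in siRbm3 (-1.74, SE 0.21, limma adjusted p = 0.0847). The 4 siRNA libraries of Ier2 and Egr1 formed a tight group, while siRbm3 2 stood apart from the other 3 in Junb. Jun was at 37.2 and 41.7 FPKM in mock and from 19.2 to 28.99 in the siRNA libraries (-0.70). Egr2 and Egr3, the relatives of Egr1, had differences of -0.77 and -0.90, with their lowest values of 7.20 and 4.78 FPKM in siRbm3 2. The other two tested members overlapped mock. Ier3 ranged from 88.7 to 272 FPKM in the siRNA libraries around mock values of 222 and 230, and Srf, the serum response factor that drives many genes of the list, was at 13.1 and 16.8 in mock and from 13.3 to 22.5 after siRNA.

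**Figure D2:**
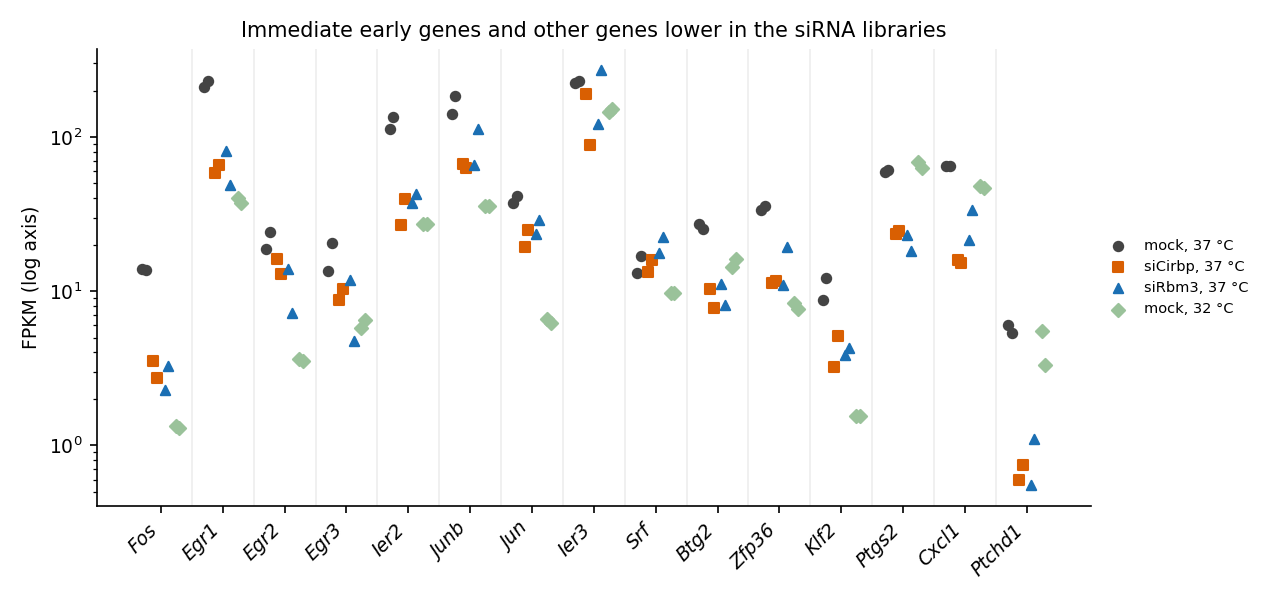
FPKM (log axis) of 9 immediate early genes and 6 further genes in each of the 8 RNA-seq libraries, with 1 point per library. In 7 of the 9 immediate early genes all siRNA points lie below both mock 37 °C points, against 6.92% of all genes, and Ier3 and Srf overlap them. The 6 further genes were chosen by a rule that requires this, so their position is no result.

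The other genes with the smallest p in the lower direction include feedback regulators of the same response. Btg2, an antiproliferative co-regulator, was at 27.3 and 25.2 FPKM in mock, 10.3 and 7.80 in siCirbp, and 11.2 and 8.15 in siRbm3 (-1.41, SE 0.19, limma adjusted p = 0.106). Zfp36, which encodes tristetraprolin, a protein that marks AU-rich mRNAs for decay, was at 33.6 and 35.5 FPKM in mock, 11.3 and 11.7 in siCirbp, and 10.9 and 19.3 in siRbm3 (-1.35). Dusp1, a phosphatase that inactivates MAP kinases, was at 33.4 and 34.5 FPKM in mock, 13.2 and 18.3 in siCirbp, and 11.9 and 18.5 in siRbm3 (-1.11). No siRNA library of these 3 genes reached a mock value. Klf2, a Krüppel-like transcription factor, was at 8.70 and 12.1 FPKM in mock and from 3.22 to 5.15 in the siRNA libraries (-1.15). The limma adjusted p was 0.305 for Zfp36, Dusp1 and Klf2. Dusp1 and the immediate early genes other than Fos, Egr1 and Ier2 were picked for naming after their values were seen.

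Promoter stretches are shown for 3 of these genes because their starts hold short letters that immediate early promoters are known for. They are the 180 bases before the RefSeq start on GRCm38.p6, all on the minus strand, 5′ to 3′, at chr1:134079156-134079335 for Btg2, chr17:26508473-26508652 for Dusp1 and chr7:28379229-28379408 for Zfp36. Capitals mark the cAMP-type letters TGACGTCA in the first pair and a CArG box, the letters bound by serum response factor, in Zfp36. These motifs were added after the values were seen.
Btg2: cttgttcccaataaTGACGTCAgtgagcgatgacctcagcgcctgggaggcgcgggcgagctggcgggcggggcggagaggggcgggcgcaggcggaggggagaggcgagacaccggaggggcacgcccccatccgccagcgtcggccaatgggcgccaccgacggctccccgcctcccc
Dusp1: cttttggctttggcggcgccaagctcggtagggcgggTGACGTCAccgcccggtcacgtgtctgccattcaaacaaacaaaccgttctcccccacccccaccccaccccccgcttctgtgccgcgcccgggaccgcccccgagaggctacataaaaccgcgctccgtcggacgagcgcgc
Zfp36: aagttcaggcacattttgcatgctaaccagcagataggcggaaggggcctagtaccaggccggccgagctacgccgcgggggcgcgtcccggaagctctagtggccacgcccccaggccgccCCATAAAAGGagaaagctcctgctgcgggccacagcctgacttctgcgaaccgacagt
Searched on both strands over 300 bases, 250 before the start and 50 after it, the CArG box was present in 9 of 28 promoters (32.1%) of the 21 matched genes of the SRF and YAP list, and in 1.63% of all 32851 promoters. The cAMP-type letters were present in 1 of those 28 promoters and in 1.79% of all. Among the 12 genes of smallest p in the lower direction, 10 were matched, with 11 promoters. The CArG box was in 1 of these 11 and the cAMP-type letters in 1. The cAMP-type letters were also in 3 of 36 promoters (8.33%) of the mitosis list, whose median was higher after siRNA.

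The rest of the SRF and YAP list was mixed. Of 9 targets of YAP and TEAD, which read out cell spreading and tension, 2 lay below both mock libraries in all 4 siRNA libraries and 0 above (median -0.21). Without siRbm3 2 or with quantile normalization 5 lay below, against 16.2% and 9.93% of all genes. The larger difference was that of Cyr61, a matricellular protein, at 358 and 435 FPKM in mock, 97.5 and 103 in siCirbp, and 121 and 225 in siRbm3 (-1.61, SE 0.33, limma adjusted p = 0.305). Of 9 actin cytoskeleton genes, 4 lay above and 1 below (median 0.26), and 2 above and 2 below with quantile normalization. The shares of all genes above and below were 24.4% and 6.92%, and with quantile normalization 18.5% and 9.93%. Acta2, smooth muscle actin, stood at 29.8 and 33.5 FPKM in mock, 45.9 and 90.5 in siCirbp, and 112 and 53.6 in siRbm3 (1.14, SE 0.35, limma adjusted p = 0.305). Acta2 was picked after its values were seen.

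Inflammatory mediators and matrix-cutting enzymes were read next. Ptgs2, the inducible prostaglandin synthase, was at 59.2 and 60.9 FPKM in mock, 23.3 and 24.5 in siCirbp, and 23.0 and 18.3 in siRbm3 (-1.40, SE 0.16, limma adjusted p = 0.0847). Cxcl1, a neutrophil chemokine, was at 64.8 and 64.5 FPKM in mock, 15.9 and 15.3 in siCirbp, and 21.3 and 33.4 in siRbm3 (-1.62, SE 0.30, limma adjusted p = 0.305). The spread among siRNA libraries was small for Ptgs2, while Cxcl1 was lower in siCirbp than in siRbm3. Cxcl5 and the adhesion molecule Vcam1 had differences of -1.08 and -0.55. At 32 °C without siRNA, Ptgs2 was at 68.3 and 62.5 FPKM, Cxcl5 at 13.7 and 15.3 and Vcam1 at 108 and 121, all above the siRNA libraries. The 24 tested NF-kB genes as a whole had 6 members below both mock libraries and 1 above, with a median of -0.13. Among all genes 6.92% lay below and 24.4% above. Without siRbm3 2 the list had 9 below and 2 above, against 16.2% and 32.7% of all genes. Of 11 tested metalloproteases, 4 lay below and 0 above (median -0.38). Without siRbm3 2 there were 8 below (median -0.59), and with quantile normalization 6. In these settings 16.2% and 9.93% of all genes lay below. The 4 that lay below in all 4 siRNA libraries are described here. These are Mmp10 (5.23 and 5.59 FPKM in mock, 0.736 to 2.72 after siRNA), Mmp3 (10.0 and 8.94, then 1.72 to 4.89), Adamts5 (2.77 and 2.64, then 1.34 to 1.72) and Adamts1 (9.78 and 9.66, then 3.58 to 7.77). None of these genes passed the adjusted test.

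Secreted and surface proteins made up the remaining named genes of this direction. Inhba, the activin beta A subunit, was at 61.5 and 69.3 FPKM in mock and from 30.4 to 36.1 in the siRNA libraries (-0.997, SE 0.15, limma adjusted p = 0.175). Tfpi, the inhibitor of the tissue factor pathway of coagulation, was at 13.1 and 11.97 FPKM in mock and from 5.41 to 6.55 after siRNA (-0.98, limma adjusted p = 0.24). Flrt2, a leucine-rich membrane protein, was at 9.08 and 8.61 FPKM in mock and from 2.51 to 3.86 after siRNA (-1.17, limma adjusted p = 0.262). In all 3 genes the 4 siRNA libraries lay within a narrow band under mock. Dcn, the matrix proteoglycan decorin, was at 586 and 542 FPKM in mock and from 291 to 363 after siRNA (-0.77), and the large proteoglycan Vcan at 50.9 and 50.2 against 14.2 to 32.3 (-1.13). Both had a limma adjusted p of 0.305.

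The widest differences in size belonged to genes on which the libraries disagreed. In 41 genes (0.383%) all 4 siRNA libraries lay below both mock libraries with a log2 difference of at least 1 in size. Lgals3, which encodes galectin-3, had the lowest value, -2.21 (SE 0.83). It stood at 83.4 and 85.4 FPKM in mock, 7.95 and 7.65 in siCirbp, 17.5 in siRbm3 1 and 80.9 in siRbm3 2, so 1 library was almost at the mock level. Car9, a hypoxia-induced carbonic anhydrase, was at 16.4 and 15.9 FPKM in mock, 3.46 and 0.609 in siCirbp, and 2.22 and 11.4 in siRbm3 (-2.06). Sprr1a and Sprr2k, small proline-rich proteins of the epidermal cornified envelope, had differences of -2.05 and -1.997. Again siRbm3 2 was the highest siRNA library, at 137 FPKM of Sprr1a (mock 176 and 191) and 34.3 of Sprr2k (mock 52.0 and 52.9). They belong to a family of similar genes, so their counts are uncertain. These 4 genes were chosen after their values were seen, and their limma adjusted p ran up to 0.329.

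Of the 23 gene lists, that of DNA replication had the most genes that stood higher in all siRNA libraries. Of 47 listed DNA replication genes, all tested, 37 had all 4 siRNA libraries above both mock libraries and 0 below, against 24.4% and 6.92% of all genes. At an unadjusted limma p under 0.05, 28 were higher and 0 lower, against 11.4% and 2.54% of all genes, and 0 passed the adjusted test. The median difference of the list was 0.92. The per-library medians were 1.17 and 1.68 in siCirbp and 0.62 and 0.34 in siRbm3, so the rank of the libraries followed the siRNA label. The count above was 39 without siRbm3 1, 43 without siRbm3 2 and 37 with the length trend removed, and it was 33 with median centring. In these settings, in the same order, the share of all genes above was 28.1%, 32.7%, 24.0% and 18.8%. By role, 12 of 14 genes of the helicase and its loading lay above, 17 of 18 of the polymerases and clamp, 5 of 7 of nucleotide supply and 3 of 8 of the G1/S regulators.

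Mcm5, a subunit of the MCM replicative helicase, had the largest difference among protein-coding genes that lay above mock. It stood at 8.48 and 10.8 FPKM in mock, 42.4 and 67.0 in siCirbp, and 23.3 and 14.7 in siRbm3 (1.62, SE 0.52, limma adjusted p = 0.305). The 6 libraries were fully ordered by group, with siCirbp highest, siRbm3 between and mock lowest. Mcm3 was at 11.3 and 13.0 FPKM in mock, 50.7 and 71.5 in siCirbp, and 28.7 and 15.5 in siRbm3 (1.49, SE 0.53). Mcm5 and Mcm3 were picked for their size after their values were seen. Chaf1a, a chaperone that loads histones behind the fork, was at 9.55 and 11.6 FPKM in mock, 26.7 and 47.9 in siCirbp, and 21.1 and 16.9 in siRbm3 (1.23). Rrm1, the large subunit of ribonucleotide reductase, was at 27.6 and 27.7 FPKM in mock, 69.9 and 90.6 in siCirbp, and 50.1 and 37.9 in siRbm3 (1.07). The same order of groups held in Rrm1, Chaf1a and Mcm3. Rfc2 and Rfc4, subunits of the clamp loader, had differences of 0.88 and 0.92. The unadjusted p between siCirbp and siRbm3 was 0.00185 for Mcm5 and 0.00488 for Rrm1, and neither passed the adjustment.

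Of 43 mitosis genes, 29 lay above both mock libraries in all 4 siRNA libraries and 0 below, with a median of 0.77. The shares of all genes were 24.4% above and 6.92% below. At an unadjusted limma p under 0.05, 27 were higher and 0 lower, against 11.4% and 2.54% of all genes. The per-library medians were 1.04 and 1.15 in siCirbp and 0.53 and 0.42 in siRbm3. Without siRbm3 1 the count above was 29, and without siRbm3 2 it was 39, against 28.1% and 32.7% of all genes. The fitted median was 1.07 for siCirbp and 0.48 for siRbm3. The 4 members with the smallest p, a choice that favours genes alike under both labels, were these. Plk1, a mitotic kinase, was at 14.6 and 14.8 FPKM in mock, 32.3 and 34.9 in siCirbp, and 23.9 and 27.6 in siRbm3 (0.95, SE 0.18, limma adjusted p = 0.305). Cdc20, an activator of the anaphase-promoting complex, was at 14.6 and 16.1 FPKM in mock, 28.9 and 33.2 in siCirbp, and 23.8 and 29.7 in siRbm3 (0.86). Its difference between siCirbp and siRbm3 was 0.21, with a 95% interval of -0.23 to 0.65. Ube2c, the ubiquitin-conjugating enzyme of that complex, was at 25.1 and 28.0 FPKM in mock, 60.4 and 53.1 in siCirbp, and 40.8 and 51.9 in siRbm3 (0.92). Ncapd2, a condensin subunit, was at 31.1 and 30.6 FPKM in mock and from 46.5 to 63.3 after siRNA (0.83).

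The list also held members that went opposite ways under the 2 labels. Cenpe, a kinetochore motor, was at 14.8 and 14.5 FPKM in mock, 22.5 and 23.5 in siCirbp, and 9.04 and 3.93 in siRbm3. Cenpf, another kinetochore protein, was at 13.3 and 13.3 FPKM in mock, 19.3 and 18.0 in siCirbp, and 8.37 and 3.16 in siRbm3. Both siCirbp libraries were above mock and both libraries labelled siRbm3 were below it. The difference between siCirbp and siRbm3 was 1.77 for Cenpe and 1.65 for Cenpf (95% intervals 1.01 to 2.53 and 0.80 to 2.50), which did not pass the adjustment (limma adjusted p = 0.424 for each). Their transcripts are long, at 7813 and 11122 nt. They were picked after their values were seen.

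**Figure D3:**
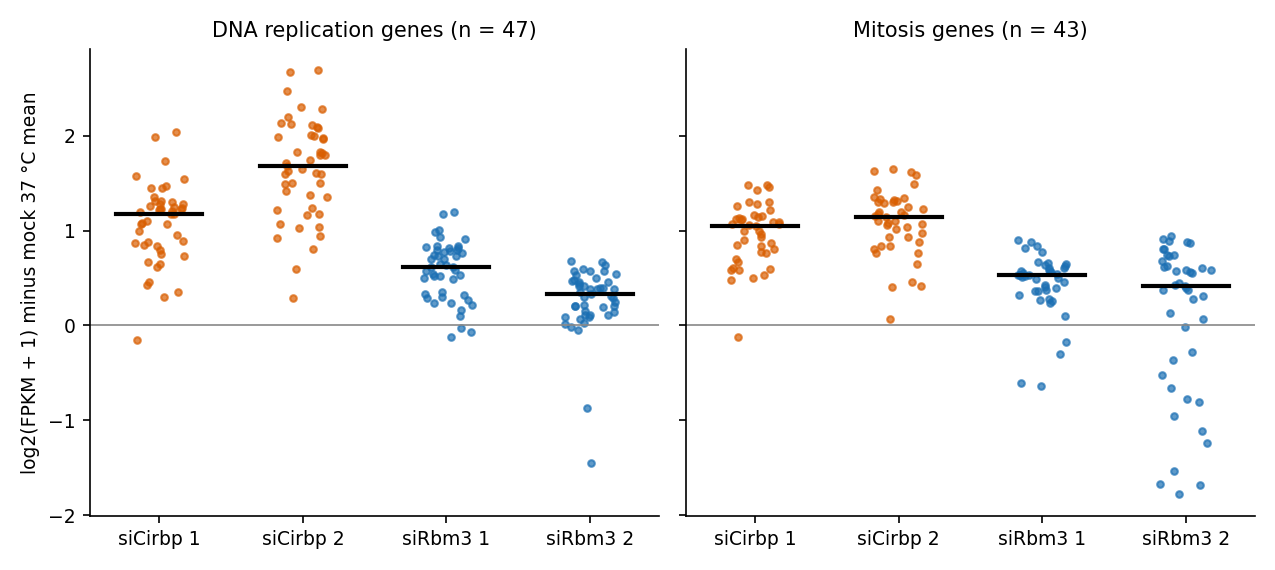
Difference of log2(FPKM + 1) from the mock 37 °C mean for each DNA replication gene (left, 47 genes) and mitosis gene (right, 43 genes) in each siRNA library. Points are genes and black bars are medians. The replication medians are 1.17 and 1.68 in siCirbp and 0.62 and 0.34 in siRbm3, and siRbm3 2 has a tail of mitosis genes below 0.

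In cells at 32 °C without siRNA, Plk1, Cdc20, Mcm5 and Cenpf were below mock 37 °C. Plk1 was at 1.62 and 2.26 FPKM there, Cdc20 at 2.37 and 2.87, Mcm5 at 1.75 and 2.44 and Cenpf at 1.74 and 1.38. Of the immediate early genes described above, Egr1 was at 40.4 and 37.2 FPKM at 32 °C, Ier2 at 27.1 and 27.1 and Jun at 6.63 and 6.24, all below or at the lower edge of the siRNA libraries. The 32 °C libraries and the siRNA libraries were set against the same 2 mock libraries, so these values share their control.

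Promoters of 4 of the cell cycle genes are shown with the letters that E2F factors and the mitotic CHR and CCAAT elements are known to use. They are again the 180 bases before the RefSeq start on GRCm38.p6, at chr8:75109329-75109508 (plus strand) for Mcm5, chr1:128359706-128359885 (minus) for Mcm6, chr4:118437344-118437523 (minus) for Cdc20 and chr10:69352913-69353092 (minus) for Cdk1. Capitals mark the E2F-type letters TTTGGCGC or TTTCCCGC on either strand in the MCM genes, and the CHR-type letters TTTGAA and CCAAT on either strand in Cdc20 and Cdk1.
Mcm5: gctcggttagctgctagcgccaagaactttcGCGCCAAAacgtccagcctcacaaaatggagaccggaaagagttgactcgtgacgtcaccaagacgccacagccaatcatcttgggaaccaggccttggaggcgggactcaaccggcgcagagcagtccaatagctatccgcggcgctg
Mcm6: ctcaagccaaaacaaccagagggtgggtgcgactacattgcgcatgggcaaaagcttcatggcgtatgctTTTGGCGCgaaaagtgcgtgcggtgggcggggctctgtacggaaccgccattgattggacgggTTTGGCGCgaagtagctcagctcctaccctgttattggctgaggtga
Cdc20: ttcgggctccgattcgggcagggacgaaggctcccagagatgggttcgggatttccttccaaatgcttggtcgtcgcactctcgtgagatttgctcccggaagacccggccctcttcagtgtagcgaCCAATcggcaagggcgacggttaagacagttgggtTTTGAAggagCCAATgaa
Cdk1: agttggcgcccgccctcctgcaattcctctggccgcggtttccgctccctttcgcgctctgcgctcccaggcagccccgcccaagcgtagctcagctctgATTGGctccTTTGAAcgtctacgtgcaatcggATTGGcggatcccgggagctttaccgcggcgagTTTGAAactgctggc
Over 300 bases around the start, E2F-type letters were present in 12 of 45 promoters (26.7%) of the 39 matched replication genes and in 1.56% of all promoters. CHR-type letters were present in 25 of 36 promoters (69.4%) of the 35 matched mitosis genes and in 17.9% of all, and CCAAT in 28 of those 36 (77.8%) and in 37.4% of all. None of these letters overlapped one another in the 4 stretches. The Mcm5 stretch also holds the cAMP-type letters TGACGTCA, left unmarked. Mcm6 was at 28.8 and 29.6 FPKM in mock and from 33.7 to 90.6 after siRNA (0.79, SE 0.35), and Cdk1, the mitotic cyclin-dependent kinase, at 22.2 and 24.4 in mock and from 33.6 to 58.7 (0.91, SE 0.26). Mcm6 and Cdk1 were picked after their values were seen.

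Of the 12 genes of smallest p in the higher direction, 4 are the mitosis genes above, and the remaining 8 belong to no common list except Gclm. Grb10, an imprinted adaptor that dampens insulin and IGF receptor signalling, had the smallest p. It stood at 1.68 and 1.75 FPKM in mock, 5.29 and 4.76 in siCirbp, and 5.33 and 5.19 in siRbm3 (1.18, SE 0.16, limma adjusted p = 0.106). The 4 siRNA libraries differed from each other by less than their distance from mock, and the difference between the siRNAs was -0.06 (95% interval -0.49 to 0.38). At 32 °C it was at 1.43 and 1.49 FPKM. Letmd1, a mitochondrial protein, was at 7.19 and 7.50 FPKM in mock, 13.0 and 16.3 in siCirbp, and 13.4 and 16.3 in siRbm3 (0.91). Gcat, a mitochondrial enzyme of threonine breakdown, was at 7.18 and 10.1 FPKM in mock and from 16.4 to 21.6 after siRNA (1.04). Bak1, a pore-forming protein of apoptosis, was at 31.3 and 36.3 FPKM in mock and from 54.6 to 64.7 (0.76). Igfbp3, which binds insulin-like growth factors, was at 4.26 and 4.10 FPKM in mock and from 7.24 to 8.08 (0.77). 2700094K13Rik and Rdbp, a subunit of the negative elongation factor, had differences of 0.77 and 0.81. The limma adjusted p of the other 11 was 0.305.

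The genes with the largest size in the higher direction were a different selection. In 58 genes (0.541%) all 4 siRNA libraries lay above both mock libraries with a log2 difference of at least 1, and 48 of these 58 had an unadjusted p under 0.05 between siCirbp and siRbm3, against 10.8% of all genes tested. The siCirbp difference was the larger one in 52 of the 58, and 23 were on the replication or mitosis lists. The largest was that of Rmrp, the RNA of RNase MRP, a short non-coding RNA of 275 nt, at 25.0 and 29.2 FPKM in mock, 90.5 and 43.2 in siCirbp, and 64.9 and 253 in siRbm3 (1.70, SE 0.60). Rmrp was picked after its values were seen.

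The respiratory chain, NRF2 and endoplasmic reticulum chaperone lists had positive medians in each of the 4 siRNA libraries. The per-library medians of all genes were also positive, from 0.07 to 0.21. Of all genes, 24.4% lay above both mock libraries in all 4 siRNA libraries and 6.92% below. Of 38 nuclear-encoded genes of the respiratory chain, 25 lay above mock in all 4 siRNA libraries and 0 below, with a median of 0.41 and per-library medians of 0.59 and 0.28 in siCirbp and 0.29 and 0.48 in siRbm3. Atp5b, the catalytic subunit of ATP synthase, was at 461 and 475 FPKM in mock, 796 and 683 in siCirbp, and 638 and 719 in siRbm3 (0.59, SE 0.15, limma adjusted p = 0.305). These transcripts are short, with a median of 1000 nt, and with the length trend removed 19 of 38 lay above with a median of 0.31. With that trend removed 24.0% of all genes lay above. Of 18 NRF2 genes, the antioxidant response, 13 lay above and 0 below (median 0.38), or 10 with the length trend removed. Gclm, which makes glutathione's rate-limiting dipeptide together with Gclc, was at 18.1 and 18.9 FPKM in mock, 29.7 and 35.6 in siCirbp, and 33.0 and 28.5 in siRbm3 (0.74). Of 13 chaperones of the endoplasmic reticulum, 8 lay above and 0 below (median 0.41), while of the 17 regulators and targets of the stress response there 2 lay above and 1 below (median -0.02). Calr, a lectin chaperone, was at 266 and 273 FPKM in mock and from 367 to 459 after siRNA (0.66, SE 0.15), and Hspa5, the main Hsp70 of that compartment, at 304 and 305 in mock and from 389 to 413 (0.41). In cholesterol synthesis 7 of 18 genes lay above and 1 below (median 0.17). None of these members passed the adjusted test.

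The machinery that handles siRNA and the response to double-stranded RNA were read because every siRNA library received a duplex. Of 15 RNA interference genes tested, 6 lay above mock in all 4 libraries and 0 below, against 24.4% and 6.92% of all genes. Of the 15, 0 had an unadjusted limma p under 0.05, and the median was 0.14, against 0.09 over all genes. All 3 genes of nuclear processing and export were among the 6, as were 2 of 4 genes of the Dicer complex. Of 8 Argonaute effectors 1 lay above and 0 below, with a median of -0.08. Xpo5, which exports precursor microRNAs, was at 14.0 and 15.6 FPKM in mock, 16.6 and 26.9 in siCirbp, and 21.1 and 19.5 in siRbm3 (0.46, SE 0.20, limma adjusted p = 0.366). Drosha, the nuclear nuclease of microRNA processing, was at 19.0 and 19.9 in mock and from 21.9 to 29.02 after siRNA (0.35). Of 44 listed genes of double-stranded RNA sensing and the interferon response, 26 were expressed enough to be tested, with 3 above, 1 below and a median of 0.00. Among the 8 sensors and adaptors, 0 lay above and 0 below. Ifi44, an interferon-stimulated gene, was the 1 below, at 2.83 and 2.64 FPKM in mock, 2.50 and 0.448 in siCirbp, and 0.725 and 0.870 in siRbm3, and Gbp2, another, was at 7.82 and 8.17 in mock and from 8.93 to 13.6 after siRNA.

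**Figure D4:**
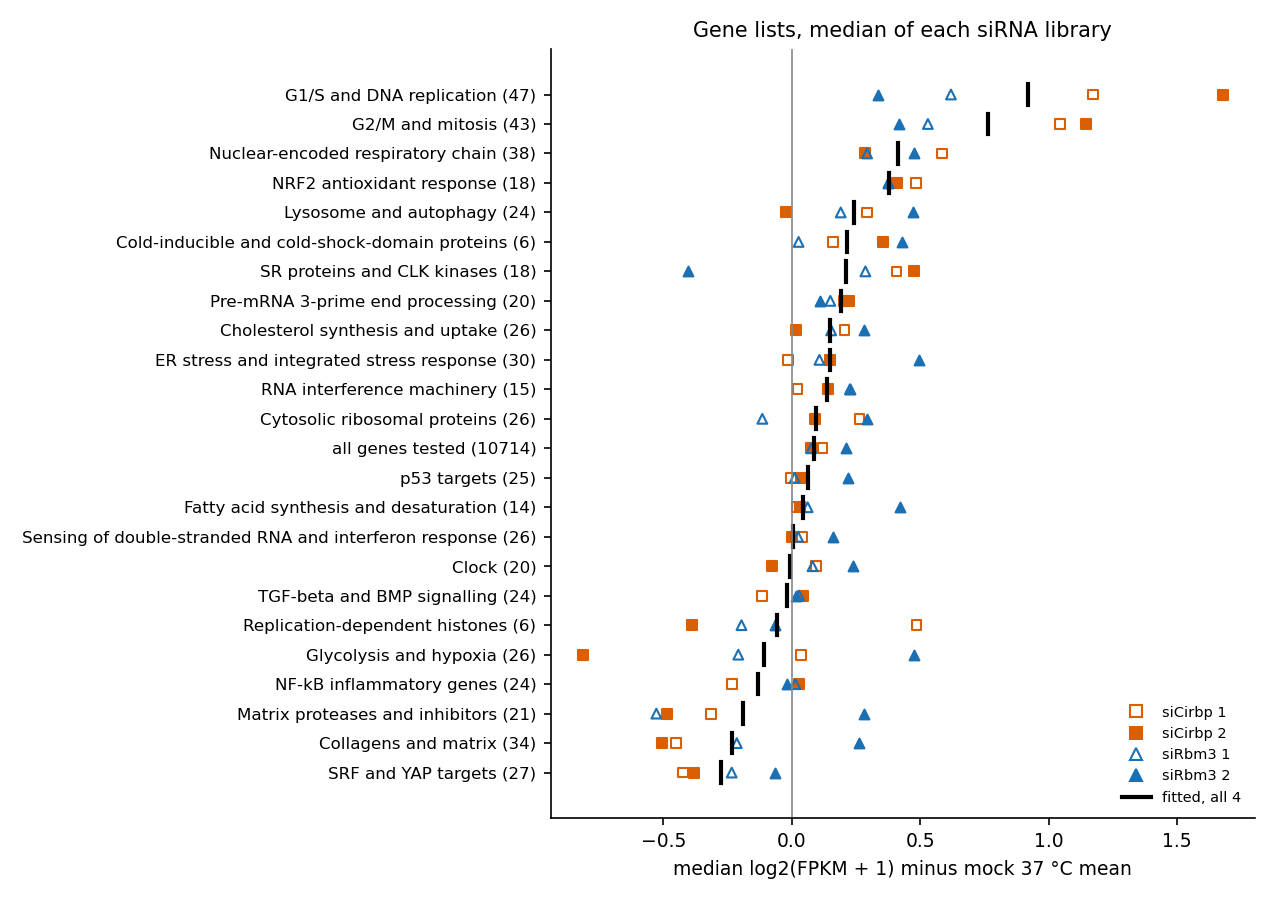
Median difference of log2(FPKM + 1) from the mock 37 °C mean for each gene list (number of genes tested in brackets) in each siRNA library, with the fitted median over all 4 as a black bar. The replication and mitosis lists lie furthest to the right, at 0.92 and 0.77, and the 4 libraries of the respiratory chain and NRF2 lists lie on 1 side of 0.

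Collagen and matrix genes were read by label, with no test of the list's difference. Over 34 of them the fitted median was -0.51 for siCirbp and 0.05 for siRbm3, with -0.21 in siRbm3 1 and 0.26 in siRbm3 2. In all 4 libraries 4 lay below and 1 above, against 6.92% and 24.4% of all genes. Without siRbm3 2 there were 17 below, and with quantile normalization 11, against 16.2% and 9.93% of all genes. Col12a1, a fibril-associated collagen, was at 104 and 92.3 FPKM in mock, 28.2 and 27.0 in siCirbp, and 64.5 and 93.6 in siRbm3. Col1a1, the main chain of type I collagen, was at 675 and 775 FPKM in mock, 457 and 545 in siCirbp, and 1034 and 1113 in siRbm3. The summed fibroblast markers, Col1a1 among them, were at 6954 and 6050 FPKM in siCirbp and 9748 and 11846 in siRbm3, and their part in the matrix values was not tested. In bulk RNA fewer cells of a type and less RNA per cell cannot be told apart. Col1a1 was below mock in both siCirbp libraries and above it in both libraries labelled siRbm3. The opposite order was found in Hat1, a histone acetyltransferase, at 33.9 and 32.6 FPKM in mock, 91.6 and 95.6 in siCirbp, and 49.4 and 40.8 in siRbm3, and in Ccne1, cyclin E1, at 3.92 and 4.71, 11.4 and 15.2, and 5.26 and 4.62. The siCirbp minus siRbm3 difference was -1.46 for Col12a1, -1.10 for Col1a1, 1.04 for Hat1 and 1.25 for Ccne1 (limma adjusted p = 0.424 for each).

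The test of that contrast over all genes called 0 of 10714 (limma; smallest adjusted p 0.424), with 1161 genes at an unadjusted p under 0.05 (10.8%). Without siRbm3 1, the library whose Rbm3 value went against its label, it called 742 genes higher in siCirbp (6.93%) and 223 lower (2.08%). That fit rests on 1 library labelled siRbm3, which is assumed to vary like the others. Hat1, Ccne1, Col12a1 and Col1a1 were named for their small p in this same contrast. Their differences in that fit were 1.18, 1.33, -1.73 and -1.16, which is a description and no test. In the same model siCirbp against mock and siRbm3 against mock each called 0 genes (limma), with 2045 (19.1%) and 930 (8.68%) at an unadjusted p under 0.05. These 2 comparisons share the mock libraries.

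The libraries of 1 siRNA label differed from each other about as much as from mock. The median absolute log2 difference over the 10714 genes was 0.0877 between the mock libraries, 0.261 between the siCirbp libraries and 0.313 between those labelled siRbm3. It ran from 0.191 to 0.385 between a mock and an siRNA library and from 0.212 to 0.405 across the siRNA labels, with siRbm3 2 in the largest value of each range. A simulation of the test gave each gene 1 spread for all 6 libraries, pooled within mock and within siRNA. Of 100 genes given a log2 change of 1, 44% were recovered, and of 100 given a log2 change of 2, 88%. There were 9 false calls. The real mock libraries differed less from each other than the siRNA libraries did, so these shares need not hold for the real data.

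Higher and lower values were unevenly split, and the split moved with scaling and length. Of the 2616 and 741 genes whose libraries did not overlap, 77.9% were on the higher side. Median centring of each library gave 2012 and 1027 (66.2% higher), and quantile normalization 1978 and 1064 (65.0%). The median difference over all genes was 0.09 as deposited, 0.02 after median centring and 0.01 after quantile normalization. With genes put into 5 equal groups by transcript length, 36.3% of the shortest group (median 1113 nt) lay above both mock libraries in all 4 siRNA libraries and 2.71% below. In the longest group (median 6030 nt) 8.96% lay above and 16.4% below. The mock libraries differed from each other along the same axis, by 0.09 in the shortest group and 0.00 in the longest. With the trend on length removed from each library, the shares were 25.2% and 6.53% in the shortest group and 23.3% and 6.07% in the longest, and 2574 genes lay above and 645 below (80.0% higher). Of these, 2177 and 480 were also on that side before.

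**Figure D5:**
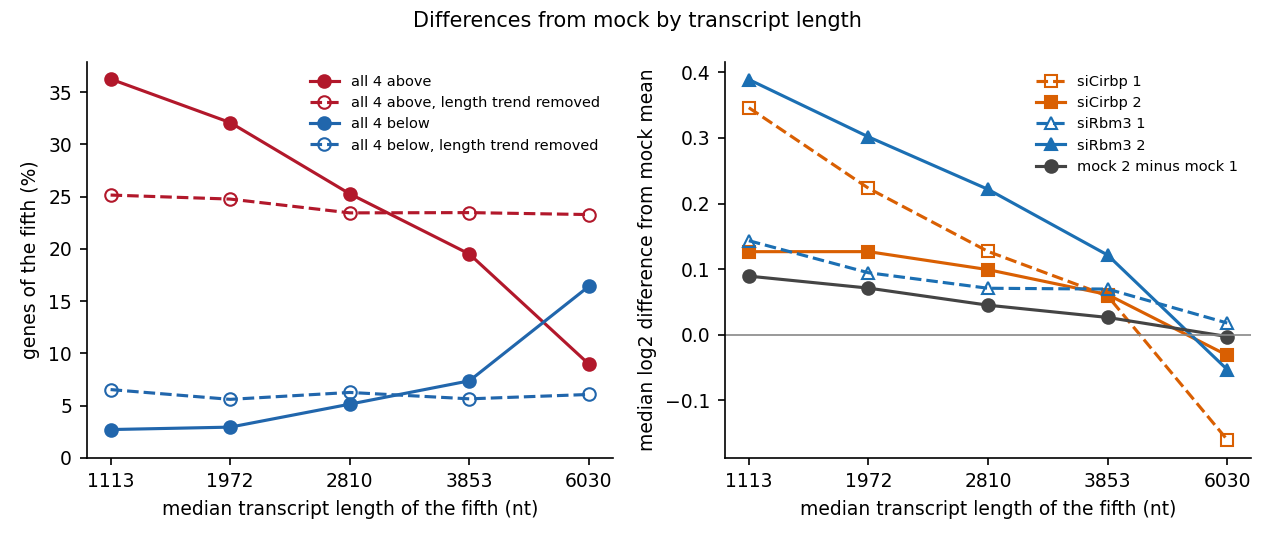
Left, percent of genes in each of 5 groups by transcript length with all 4 siRNA libraries above (red) or below (blue) both mock 37 °C libraries, as deposited (solid) and with the length trend removed (dashed). Right, median log2 difference from the mock mean per siRNA library, and of mock 2 from mock 1. Shares above fall from 36.3% in the shortest group to 8.96% in the longest.

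PAR-CLIP sites, at which tagged Cirbp or Rbm3 was crosslinked to RNA, were set beside these groups of genes. Of all 10714 genes, 8.44% held at least 1 Cirbp site in their mm9 locus and 8.86% at least 1 Rbm3 site. Among the 741 genes lower in all 4 siRNA libraries the shares were 12.3% (95% Wilson interval 10.1% to 14.8%) and 13.0% (10.7% to 15.6%). Among the 2616 higher genes they were 7.38% (6.44% to 8.44%) and 8.49% (7.48% to 9.62%). Intervals cover counting error only, and there is 1 PAR-CLIP library per protein. The lower genes have longer transcripts, with a median of 4434 nt against 2163 nt in the higher genes and 2810 nt in all, and the part of length in these shares was not tested. Of the 12 genes of smallest p in the lower direction, Egr1 alone held a site, 1 of Cirbp, and of the 12 in the higher direction none did. Other named genes with sites lay in both directions. Among lower genes, Jun held 5 Rbm3 sites, Junb 1 and Vcan 1. Among higher genes, Hspa5 held 1 Cirbp and 4 Rbm3 sites, Hat1 2 Cirbp sites and Atp5b 2 Cirbp sites. Srf, which overlapped mock, held 2 Rbm3 sites.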

How the data were processed

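The RNA-seq tables give 1 FPKM value for each of 28702 RefSeq transcripts in each library, as deposited by the authors. The submitters' processing notes name TopHat 1.1.2 and the mm9 build. The Cufflinks version and the PAR-CLIP caller are not given in the sources used here. Coverage, per the file headers, is the depth of reads over a transcript. Its ratio to FPKM gave the mapped fragments per library. Transcript length in nt is given per the file headers. The score of each PAR-CLIP site is the authors' own, as deposited, on a scale that the header does not explain, and the 2 lists hold 1941 Cirbp and 2118 Rbm3 sites on mm9.

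FPKM were summed per gene and tested as log2(FPKM + 1) with limma 3.58.1 in R 4.3.3 (2 group means, 4 residual degrees of freedom, empirical Bayes with trend and robust options, two-sided, Benjamini-Hochberg, threshold 0.05). The contrasts of single siRNAs came from a fit of 3 group means. How reads with several positions were shared between similar genes is not given in the sources used here. A fit was tested on simulated data.

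Cirbp and Rbm3 were always named. With fewer than 5 genes past the threshold in a direction, the 12 of smallest p were named among genes whose libraries did not overlap and whose higher group averaged 5 FPKM or more, with up to 4 members of each described list and 5 genes per direction between the siRNAs. Genes outside this rule are said to be chosen after their values were seen. The genes, the 23 gene lists and the tests were chosen with earlier results of these data known. A site counted for a gene when it overlapped the locus by at least 1 base. Alternatives covered the pseudocount, filters, the transcript used, scaling, length, the model, all 8 RNA-seq libraries and each library left out.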

Additional observations from a re-analysis of the deposited data

Results flagged for a closer look

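In 6 of 99 named genes 1 siRNA library stood far from the other 3 by the ratio of its gap to the group's range, a criterion that chance meets in about 5% of groups. In 5 of them the library was siRbm3 2. It stood at 19.28 FPKM for Zfp36 (the other 3 at 10.9, 11.3 and 11.7), at 13.92 for Col6a3 (2.29, 2.57 and 3.27, with mock at 13.6 and 12.4), at 80.95 for Lgals3 (7.65, 7.95 and 17.5), at 137.3 for Sprr1a (21.98, 33.8 and 34.4) and at 113 for Junb (62.9, 66.2 and 67.2). In each of these 5 genes the remaining 3 siRNA libraries were below mock and below siRbm3 2. For Col6a3 siRbm3 2 was above both mock libraries. Without siRbm3 2, limma called Zfp36, Col6a3, Lgals3, Sprr1a and Junb lower (adjusted p from 0.0127 to 0.036). These genes were flagged because siRbm3 2 stood high in them. Calls without that library follow largely from this choice and are no test. In Creld2, a chaperone-like protein of the endoplasmic reticulum, siCirbp 2 stood at 45.37 FPKM and the others at 38.0, 38.3 and 39.2.

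In 5 of the 99 named genes siCirbp and siRbm3 were flagged as lying on opposite sides of mock in every library. The share over all genes tested is not given here. The siCirbp minus siRbm3 difference was -1.566 for Msln (mesothelin), -1.289 for Psca, -1.104 for Col1a1, 1.77 for Cenpe and 1.653 for Cenpf. None passed limma's adjusted test of the difference (adjusted p = 0.424 for each). Without siRbm3 1 the differences were -1.42, -1.316, -1.157, 2.283 and 2.238 in the same order, in a fit with 1 library labelled siRbm3. The 5 genes were picked by these same values, so this is a description and no test.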

How the results depend on the processing

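The 2 genes called lower became 0 with a pseudocount of 0.1, with a mean of at least 5 FPKM, with short genes kept, with the highest transcript of each gene, with quantile normalization and with 3 group means, and 1 with the length trend removed. Leaving out 1 library gave 0 to 35 lower and 0 to 4 higher genes, with 35 and 4 without siRbm3 2 and 0 otherwise. The 35 included 11 of the 12 named lower genes. All 8 RNA-seq libraries in 1 model gave 24 higher and 17 lower genes. With no filter on low values 6 were higher, 35 lower and 66 differed between the siRNAs, and none of the 35 and 6 was among the 10714 genes of the main comparison. Keeping short genes gave 4 that differed between the siRNAs, and leaving out 1 library 0 to 965, the latter without siRbm3 1. Genes below both mock libraries numbered 932 to 1736 when 1 library was left out, with 1736 without siRbm3 2. The cause of these shifts was not tested.

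Replicate numbers were not shown to pair libraries: deviations of same-numbered libraries correlated at r = -0.026 (mock with siCirbp), 0.255 (mock with siRbm3) and -0.258 (siCirbp with siRbm3) across genes. With the replicate number as a block limma called 0 higher, 0 lower and 0 between the siRNAs, with 1273 genes at an unadjusted p under 0.05 for siRNA against mock.

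No named gene changed direction in any alternative run. Named genes kept their side of the threshold in 1690 values, gained a call in 45 and lost it in 26. Of the list medians 405 moved by less than the spread between libraries and 9 by more. With sites of at least the median score only, the Cirbp share was 8.23% of lower, 4.01% of higher and 5.18% of all genes. Depth leaves genes near 1 FPKM with the least precise values.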

Other observations

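Further lists are given beside all genes, whose median difference was 0.09 with 24.4% above and 6.92% below both mock libraries. Of 24 lysosome and autophagy genes, 9 lay above (37.5%) and 0 below (median 0.24). Of 20 genes of mRNA 3′ end processing, 8 lay above (40.0%) and 1 below (median 0.19), and with quantile normalization 2 lay above and 3 below. With that normalization 18.5% of all genes lay above and 9.93% below. Of 14 fatty acid synthesis genes, 4 lay above and 0 below (median 0.04). Of 25 p53 targets, 4 lay above and 2 below (median 0.06), and of 20 clock genes 3 lay above and 1 below (median -0.01). Of 24 TGF-beta and BMP genes, 6 lay above (25.0%) and 6 below (25.0%), with a median of -0.02. Of 26 cytosolic ribosomal protein genes, whose near-identical copies make their values uncertain, 7 lay above and 2 below (median 0.10). Of 6 tested replication-dependent histone genes, whose mRNAs lack a poly(A) tail, 0 lay above and 0 below. Of 6 cold-inducible and cold-shock-domain genes, 2 lay above and 0 below (median 0.22).

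The libraries also pulled apart in several lists, of which 3 are given here. The median of 26 glycolysis and hypoxia genes was 0.03 and -0.81 in siCirbp and -0.21 and 0.48 in siRbm3, with 2 above and 1 below. Without siRbm3 2 there were 9 below, against 16.2% of all genes. The median of 18 SR proteins and CLK kinases, which act in splicing, was 0.41 and 0.48 in siCirbp and 0.29 and -0.40 in siRbm3, with 3 above and 1 below. The median of 21 matrix proteases and inhibitors was -0.31 and -0.49 in siCirbp and -0.53 and 0.28 in siRbm3, with 1 above and 4 below. In each of these 3 lists siRbm3 2 was at one end of the range. That was not so in the histone list, with medians of 0.49 and -0.39 in siCirbp and -0.20 and -0.07 in siRbm3. No member of these lists passed limma's adjusted test.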
